A study of Mus musculus with 16 samples.

Results

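The 9 genes described here, S100a8, S100a9, Lcn2, Ltf, Camp, Ngp, Mmp8, Mmp9 and Retnlg, encode abundant products of mature neutrophils. They were taken by symbol from the array annotation. Each had 1 probe set, so the 9 probe sets stood among 19572 that named a gene, for 19505 gene symbols. The choice used gene names and no measured value, although earlier results of these data were known when it was made.

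Cells of the olfactory mucosa came from S100a5-tauGFP mice, in which GFP reports activity of the S100a5 gene in olfactory sensory neurons. The 24 mice, of both sexes and 7 to 12 weeks old, were kept singly for 40 h in chambers with an air flow of 3.1 L/min. After the first 26 h, pulses of 10 s were given every 20 min, either of 2-octanone, a ketone odorant, or of filtered air as vehicle. Mice were pooled by 3, giving 4 pools per exposure, and every pool was sorted by flow cytometry into GFP+ and GFP- cells. All 4 groups, 2-octanone GFP+, 2-octanone GFP-, vehicle GFP+ and vehicle GFP-, carried the reporter and held 4 arrays each. The sort parted cells by fluorescence alone, so the GFP- fraction holds every other dissociated cell, blood cells included.

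Neutrophils leave the bone marrow with their main granule proteins already made. Azurophilic granules are filled first, in promyelocytes, with enzymes such as myeloperoxidase. Specific granules follow in myelocytes and gelatinase granules after them, and the transcripts of these later sets rise under C/EBP factors, among them C/EBP epsilon, as the cells mature. S100a8 and S100a9, although grouped here with the granule genes, encode the subunits of calprotectin, a metal-binding complex that fills the cytosol of neutrophils and is also made by monocytes. Lcn2, Ltf, Camp, Ngp and Mmp8 encode specific granule proteins. Mmp9 encodes gelatinase B of the gelatinase granules, and Retnlg a secreted resistin-like protein of granulocytes. Lcn2 and Ltf can also be made by gland and airway epithelium.

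RefSeq promoter windows were found for 8 of the 9 genes, all but Mmp9. A window runs from 250 bases before the annotated start to 50 after it, 300 bases in all, on build GRCm38.p6. Both strands were searched for a C/EBP motif (TTGCNNAA or TTNNGCAA), a PU.1 motif (GAGGAA or TTCCTC) and a TATA box (TATAAA or TTTATA). The C/EBP letters were present in 6 of the 8 windows (Lcn2, S100a9, Mmp8, Ngp, Ltf and Retnlg) and in 10.8% of 32841 windows of all genes. PU.1 letters were present in 4 of the 8 (Lcn2, S100a8, Mmp8 and Ltf) against 28.3%, and TATA letters in 3 (S100a8, S100a9 and Mmp8) against 13.6%. These letter matches are a description and do not show binding.

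The 5 windows below are those of the calprotectin pair, the 2 specific granule genes closest to each other in their values, and the collagenase gene whose window holds all 3 motifs. They lie at chr3:90668821-90669120 (plus strand, S100a8), chr3:90695672-90695971 (minus strand, S100a9), chr2:32387690-32387989 (minus strand, Lcn2), chr9:110419558-110419857 (plus strand, Ngp) and chr9:7558179-7558478 (plus strand, Mmp8). Capitals mark motif matches on either strand, written in the direction of transcription.
S100a8: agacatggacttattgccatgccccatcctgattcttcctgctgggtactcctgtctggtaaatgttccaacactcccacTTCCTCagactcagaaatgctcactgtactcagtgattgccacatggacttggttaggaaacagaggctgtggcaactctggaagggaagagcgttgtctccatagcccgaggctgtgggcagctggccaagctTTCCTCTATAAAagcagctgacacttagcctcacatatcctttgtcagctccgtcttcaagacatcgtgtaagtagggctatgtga
S100a9: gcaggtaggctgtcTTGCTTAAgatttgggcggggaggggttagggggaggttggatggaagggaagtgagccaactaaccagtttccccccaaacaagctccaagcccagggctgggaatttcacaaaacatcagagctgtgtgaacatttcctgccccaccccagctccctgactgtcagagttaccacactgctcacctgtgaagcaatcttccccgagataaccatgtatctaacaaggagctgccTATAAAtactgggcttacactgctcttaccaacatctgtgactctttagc
Lcn2: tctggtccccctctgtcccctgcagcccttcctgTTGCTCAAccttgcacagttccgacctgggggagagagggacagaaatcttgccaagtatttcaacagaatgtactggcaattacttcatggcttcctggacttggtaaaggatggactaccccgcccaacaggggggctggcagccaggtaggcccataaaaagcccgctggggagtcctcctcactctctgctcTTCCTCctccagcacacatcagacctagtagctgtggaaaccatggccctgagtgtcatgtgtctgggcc
Ngp: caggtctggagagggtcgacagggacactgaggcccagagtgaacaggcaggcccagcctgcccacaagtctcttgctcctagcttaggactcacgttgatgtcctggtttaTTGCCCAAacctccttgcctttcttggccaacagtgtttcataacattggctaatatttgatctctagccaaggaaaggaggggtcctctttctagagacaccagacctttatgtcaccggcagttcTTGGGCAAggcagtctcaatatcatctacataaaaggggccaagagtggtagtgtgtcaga
Mmp8: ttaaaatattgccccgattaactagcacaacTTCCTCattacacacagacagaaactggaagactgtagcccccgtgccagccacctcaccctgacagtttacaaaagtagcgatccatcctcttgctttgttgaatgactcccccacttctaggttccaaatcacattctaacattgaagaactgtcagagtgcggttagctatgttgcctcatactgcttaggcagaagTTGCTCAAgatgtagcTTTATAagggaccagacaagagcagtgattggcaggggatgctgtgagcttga
In the S100a8 window a PU.1 match at -36 from the start ends directly before a TATA match at -30. The TATA matches of S100a9 and Mmp8 lie at the annotated start itself, beginning at 1 and -3. The Ngp window holds 2 C/EBP matches, at -138 and -11.

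Values are the deposited log2 signals, so a difference of 1 is a 2-fold change. A value was taken as above background on an array when it passed the 95th percentile of 23 background control probe sets there, which lay between 7.61 and 8.18. Omp, the olfactory marker protein of mature neurons, read 18.35 to 18.45 in GFP+ and 17.76 to 18.36 in GFP- cells, so both fractions held neurons. The neutrophil label was checked against genes of the same cells: Csf3r and Cxcr2, receptors for G-CSF and for chemokines, were above background on all 8 GFP- arrays (10.48 to 13.45 and 10.89 to 13.78). They belong to 8 measured neutrophil surface receptors, not all of which passed background in every pool. In GFP- cells 5, 8, 7 and 8 of the 8 did in 2-octanone pools 1 to 4 and 6, 7, 6 and 8 in vehicle pools 1 to 4. Ly6g, the usual surface marker, was not analysed here. Both replicate 4 pools stood apart in S100a5, which read 13.92 and 13.22 in their GFP+ cells and 16.47 to 16.98 in the other 6, and the 2-octanone pools 3 and 4 stood apart in the granule genes, as given below.

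All 9 genes were far higher in GFP- than in GFP+ cells. Every GFP+ array lay under every GFP- array for each of them, a pattern shown by 8.25% of all probe sets. GFP- levels were above background for all 9 genes in every pool, and their SD over the 4 vehicle GFP- arrays was 0.07 (Lcn2) to 0.80 (Camp).

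**Figure D1:**
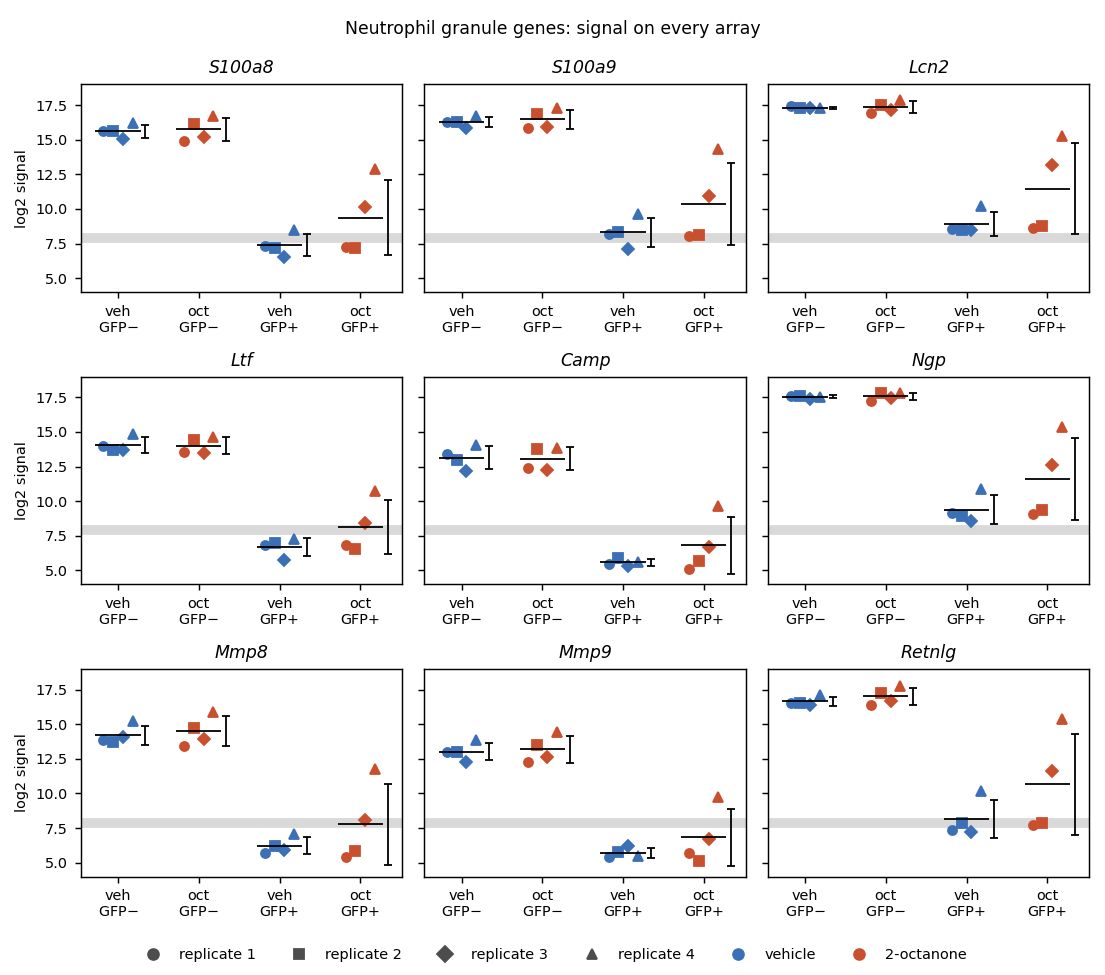
Log2 signal (vertical axis) of the 9 genes on all 16 arrays, by group (veh, vehicle; oct, 2-octanone). Symbols are pools, horizontal lines group means, bars at the right ± SD (n = 4), and the grey band spans the arrays' background limits of 7.61 to 8.18. GFP- arrays sit at 12.15 or above, and among GFP+ arrays the 2-octanone replicates 3 and 4 sit highest.

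S100a8, whose protein is the smaller calprotectin subunit, read 15.65, 15.63, 15.01 and 16.17 in the GFP- cells of vehicle pools 1 to 4 and 14.92, 16.16, 15.20 and 16.68 in those of the 2-octanone pools. In the GFP+ cells of the same pools it read 7.32, 7.17, 6.55 and 8.45 after vehicle and 7.28, 7.19, 10.15 and 12.89 after 2-octanone. The fractions did not overlap, and the GFP+ values past background were those of vehicle pool 4 and 2-octanone pools 3 and 4. S100a9, its partner, read 8.19, 8.32, 7.08 and 9.61 in vehicle GFP+ cells and 8.02, 8.14, 10.96 and 14.33 in 2-octanone GFP+ cells, against 15.81 to 17.27 over the 8 GFP- arrays. Both subunits were high in the same arrays. Over both exposures S100a8 was lower in GFP+ cells by a log2 difference of -7.31 (SE 0.65; limma adjusted p = 1.61e-07) and S100a9 by -7.03 (SE 0.70; limma adjusted p = 6.62e-07).

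Lcn2, which encodes lipocalin 2, a protein that binds bacterial siderophores, read 17.43, 17.28, 17.26 and 17.32 in vehicle GFP- cells and 16.91, 17.54, 17.17 and 17.83 in 2-octanone GFP- cells. Its GFP+ values were 8.57, 8.47, 8.49 and 10.24 after vehicle and 8.61, 8.79, 13.14 and 15.23 after 2-octanone. Vehicle pools 1 to 3 and 2-octanone pools 1 and 2 lay close together, and the remaining 3 pools lay above them. Ngp, neutrophilic granule protein, read 17.24 to 17.81 over all GFP- arrays, and in GFP+ cells 9.15, 8.94, 8.54 and 10.91 after vehicle and 9.10, 9.38, 12.63 and 15.36 after 2-octanone. The highest value on an array was 18.27 to 18.99, so the GFP- signals of both genes stood near the top of the scale. Lcn2 was lower in GFP+ cells by -7.15 (SE 0.74; limma adjusted p = 1.01e-06) and Ngp by -7.05 (SE 0.68; limma adjusted p = 4.73e-07).

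Ltf, which encodes the iron-binding lactoferrin, was not above background on any vehicle GFP+ array (5.77 to 7.29), and neither was Camp, the precursor of the antimicrobial peptide CRAMP (5.34 to 5.91). Against GFP- means of 14.06 ± 0.55 and 13.15 ± 0.80 (SD, n = 4) their vehicle GFP- levels were at least 68.4-fold and at least 36.5-fold higher. These bounds set the higher of each array's background limit and the probe set's own value against the GFP- mean. Mmp8, neutrophil collagenase, was likewise not above background in vehicle GFP+ cells and was at least 75.8-fold higher in GFP- cells. In the GFP+ cells of the 2-octanone pools Ltf read 6.85, 6.55, 8.42 and 10.76, Camp 5.11, 5.70, 6.71 and 9.69, and Mmp8 5.41, 5.82, 8.08 and 11.74. Only replicate 4 was above background for all 3 of these genes. Over both exposures the fitted differences were -6.61 (SE 0.48; limma adjusted p = 1.74e-08) for Ltf, -6.92 (SE 0.51; limma adjusted p = 2.18e-08) for Camp and -7.37 (SE 0.70; limma adjusted p = 3.64e-07) for Mmp8.

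Mmp9, whose product degrades basement membrane collagen, was also not above background on the vehicle GFP+ arrays (5.42 to 6.22) and was at least 33.4-fold higher in vehicle GFP- cells. Its 2-octanone GFP+ values were 5.72, 5.11, 6.75 and 9.73, and replicate 4 alone passed background. Retnlg read 16.38 to 17.14 in vehicle GFP- and 16.39 to 17.79 in 2-octanone GFP- cells. Its GFP+ values were 7.37, 7.90, 7.19 and 10.16 after vehicle and 7.71, 7.89, 11.66 and 15.35 after 2-octanone, again with vehicle pool 4 and 2-octanone pools 3 and 4 on top. The fitted differences were -6.85 (SE 0.52; limma adjusted p = 2.76e-08) for Mmp9 and -7.43 (SE 0.85; limma adjusted p = 3.33e-06) for Retnlg.

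The comparison of GFP+ with GFP- cells asked which transcripts part the reporter-bearing neurons from the rest of the tissue. All 9 genes passed the test as lower in GFP+ cells over both exposures, where 14.0% of all probe sets did. Their median difference was -7.05, against 0.13 over all probe sets tested. All 9 also passed as lower after vehicle alone (background share 11.0%; median -7.99) and after 2-octanone alone (9.80%; median -6.25). In these bulk samples fewer neutrophils, or fewer of other cells with these RNAs, cannot be told apart from less of the RNA per cell. Where a GFP+ signal was not above background its difference is not an exact size: with such signals raised to each array's background limit, the median was -7.48 after vehicle and -5.92 after 2-octanone. Centring each array on its median raised the median difference of all probe sets to 0.41, with 2052 lower and 13089 higher calls in place of 2737 and 3263, and the 9 genes all stayed called with a median of -6.77.

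Within single pools the difference between the fractions was negative for all 9 genes in all 8 pools, which held for 12.2% of probe sets. In each pool all 9 were over 4-fold lower in GFP+ cells, which held for 1.99%. The size varied between pools: the median of the 9 within-pool differences was -8.16, -7.94, -8.47 and -7.57 in vehicle pools 1 to 4 and -7.79, -8.69, -5.05 and -3.79 in the 2-octanone pools. As a share of the same pool's GFP- signal, the median GFP+ signal was 0.283% to 0.527% in the vehicle pools, 0.451% and 0.243% in 2-octanone pools 1 and 2, 3.02% in pool 3 and 7.21% in pool 4. These shares use the signals as measured, and in every pool but 2-octanone pool 4 some of the 9 GFP+ signals were not above background, so the small shares are not exact.

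**Figure D2:**
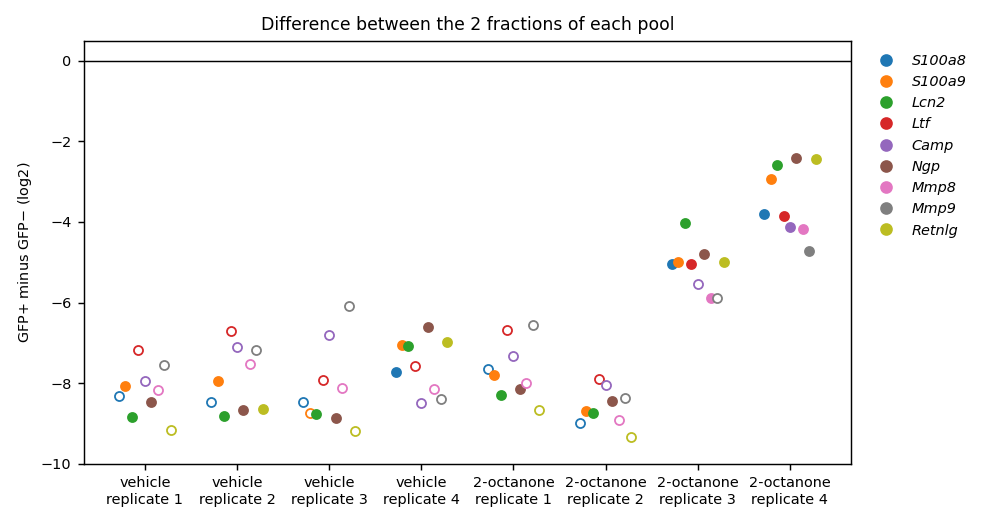
GFP+ minus GFP- log2 signal (vertical axis) of the 9 genes in each of the 8 pools. Filled points were above background in GFP+ cells and open points were not, and each colour is 1 gene. The points of 2-octanone replicate 4 lie between -4.73 (Mmp9) and -2.42 (Ngp), those of replicate 3 between -5.89 (Mmp9) and -4.03 (Lcn2), and those of the other 6 pools at -6.09 or below.

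In 2-octanone replicate 4 the genes differed in the gap that remained between the fractions. Ngp (-2.42), Retnlg (-2.44), Lcn2 (-2.60) and S100a9 (-2.94) differed least between its fractions, and Mmp9 (-4.73), Mmp8 (-4.16) and Camp (-4.12) most. Ngp, Retnlg, Lcn2 and S100a9 also read highest in the GFP- cells of this pool (17.27 to 17.83). The highest value on that array was 18.86. Mmp9, Mmp8 and Camp read 13.81 to 15.91 there. Signals near the top of the scale have less room to vary, and their part in this order was not tested. The GFP+ share of the GFP- signal in this pool ran from 3.77% (Mmp9) to 18.7% (Ngp). The number of the 9 genes above background in GFP+ cells was 3, 3, 7 and 9 in 2-octanone pools 1 to 4 and 3, 4, 2 and 5 in vehicle pools 1 to 4.

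The comparison of 2-octanone with vehicle asked which transcripts respond to the odorant. In GFP+ cells none of the 9 genes passed the limma test after adjustment (adjusted p = 1.00 for each), and neither did any of the 19572 probe sets, a background share of 0%. At an unadjusted p under 0.05 there were 4 of the 9 (Lcn2, Ngp, S100a8 and Ltf), where 3.16% of all probe sets passed. All 9 differences were positive, which held for 51.3% of probe sets, with a median of 2.00 against 0.01 over all probe sets. The largest were 2.50 for Lcn2 (SE 1.04; 95% interval 0.29 to 4.71; limma unadjusted p = 0.0290) and 2.50 for Retnlg (SE 1.20; limma unadjusted p = 0.0539), and the smallest was 1.11 for Mmp9 (SE 0.73; limma unadjusted p = 0.149). When only the 8 GFP+ arrays were fitted, none of the 9 was under an unadjusted limma p of 0.05, with 0.0836 for Lcn2 the lowest.

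These means rested on 2 of the 4 2-octanone pools. For all 9 genes 2-octanone replicates 3 and 4 lay above the other 6 GFP+ arrays, a pattern of 3.14% of probe sets, and replicate 4 was the highest of the 8, as for 16.3% of probe sets. For none of the 9 did every 2-octanone array lie above every vehicle array, which 0.930% of probe sets did. Replicate 4 exceeded the highest of the other 6 arrays by 3.47 (Ltf) to 5.20 (Retnlg), and replicate 3 exceeded it by 0.53 (Mmp9) to 2.91 (Lcn2). Leaving out 1 pool at a time gave a median of 0.74 (without 2-octanone replicate 4) to 2.73 (without 2-octanone replicate 2). Without 2-octanone replicate 1 it was 2.70. Without replicates 1 or 2 of 2-octanone 8 and 7 of the 9 genes were under an unadjusted limma p of 0.05. Of all 19572 probe sets 589 and 643 were under it in these fits. Without 2-octanone replicate 4 none of the 9 genes was, where 705 probe sets were. The differences of the 9 then ran from 0.14 (Mmp9) to 1.24 (Lcn2). Without both replicate 4 pools the median was 1.18. With 2-octanone replicates 3 and 4 both left out, a choice made after the values were seen, all 9 differences were negative and their median was -0.22, from -0.60 (Mmp8) to -0.01 (Ltf). None of the 9 was called in any of these fits.

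**Figure D3:**
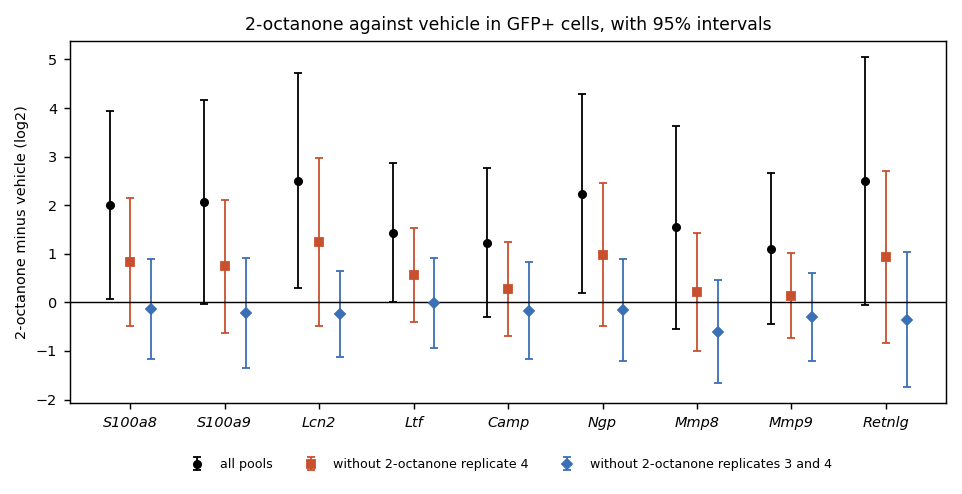
Difference between 2-octanone and vehicle in GFP+ cells (log2, vertical axis) for the 9 genes, with 95% intervals of the limma fit, over all pools, without 2-octanone replicate 4 and without replicates 3 and 4. The medians are 2.00, 0.74 and -0.22.

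GFP- cells gave small differences between the exposures. These differences between 2-octanone and vehicle ran from -0.10 (Camp) to 0.37 (Retnlg) with a median of 0.12, and 7 of the 9 were positive, as for 49.8% of probe sets. None of the 9 was called by limma or had an unadjusted p under 0.05. The background shares were 0.00511% called and 2.44% at an unadjusted p under 0.05. A fit of the GFP- arrays alone gave the narrowest 95% intervals to Ngp (0.03; -0.33 to 0.39) and Lcn2 (0.04; -0.39 to 0.47) and a wide one to Mmp8 (0.30; -0.84 to 1.44). A missed threshold does not show equal levels, and for Mmp8 a difference of over 2-fold lay within the interval.

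GFP- levels did vary between pools of 1 exposure. Replicate 4 was the highest vehicle pool for 7 of the 9 genes and the highest 2-octanone pool for 8 of the 9, and 7 genes were highest there in both exposures, as 12.8% of probe sets were. Mmp8, for example, read 15.23 and 15.91 in the replicate 4 GFP- cells and 13.41 to 14.74 in the other 6 pools. Lcn2 and Ngp, at the top of the scale, were the 2 that did not peak in vehicle replicate 4.

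How the ratio of GFP+ to GFP- signal differed between exposures joins both contrasts. It was positive for all 9 genes, as for 51.2% of probe sets, from 0.92 (Mmp9; SE 1.03) to 2.46 (Lcn2; SE 1.48), with a median of 1.86. None was called by limma and none had an unadjusted p under 0.05, where the background shares were 0% and 2.38%. The median was 0.81 without 2-octanone replicate 4 and -0.14 without 2-octanone replicates 3 and 4. The within-pool differences of the vehicle pools had an SD of 0.32 (Mmp8) to 1.04 (Ngp and Retnlg), against 1.52 (Mmp9) to 3.24 (Retnlg) in the 2-octanone pools (n = 4 each).

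Other neutrophil genes were compared between the fractions over both exposures. Of 11 further specific and gelatinase granule genes all 11 passed as lower (median -4.83), among them Chil3 (-7.12), a chitinase-like protein, and Hp (-6.54), haptoglobin. All 5 measured genes of the NADPH oxidase, the enzyme of the respiratory burst, passed as lower (median -4.92; Rac2 -6.31, Ncf1 -6.05, Ncf4 -4.92 and Cybb -4.83). All 8 measured surface receptors did so too (median -3.64), with Itgb2, an integrin subunit, at -5.64, Csf3r at -5.35, Cxcr2 at -4.27 and Tlr2 at -1.80.

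In the azurophilic granule list 5 of 6 genes passed as lower (median -3.39; Mpo -5.74, Elane -5.26, Ms4a3 -3.41 and Prtn3 -2.40), and Bpi (0.29) was not called. Ms4a3 is a marker of bone marrow precursors that was read with this list. In GFP- cells the list's mean was 7.70 and 8.19 in the replicate 3 pools of 2-octanone and vehicle and 9.54 to 10.28 in the other 6, with the highest value in vehicle replicate 4. Mpo, myeloperoxidase, read 11.54 and 12.18 in replicate 3 and 13.79 to 14.54 in the other 6. Elane, neutrophil elastase, read 10.04 and 10.95 in replicate 3 and 12.94 to 13.75 elsewhere. The mean of the 9 genes in the same replicate 3 GFP- cells was 14.97 and 14.90, within the 14.77 to 16.24 of the other pools. The difference between these lists across pools was not tested.

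Granulocyte transcription factors passed as lower in 6 of 8 cases (median -1.47), led among the named ones by Spi1, which encodes PU.1 (-5.34), with Klf6 at -1.0 and Cebpa at -0.62. Cebpb (-0.11) was not called. Of 14 genes of neutrophil activation 12 passed as lower (median -2.22; Il1b -4.69, Clec4e -3.09, Srgn -2.49 and Ccl3 -1.74).

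Genes whose products act on or bind the 9 proteins were also read. Of 10 inhibitors of neutrophil and matrix proteases 6 passed as lower (median -1.02), with Stfa2l1, a stefin, at -4.98, Serpinb1a, an elastase inhibitor, at -4.70 and Wfdc21 at -3.08, while Timp2 (0.13), an inhibitor of metalloproteinases, was not called. Among 7 receptors of the products 4 passed as lower (median -0.51; Cd33 -3.37 and Cap1 -0.78), and Slc22a17 (0.23), a lipocalin 2 receptor, and Cd36 (-0.10) were not called. Neutrophil attractants gave 3 lower and 1 higher of 8 (median -0.14). None of these 8 was above background on any GFP+ array, and at most 2 were on a GFP- array. In none of these 9 lists, with 75 different genes measured, was a gene called by limma between 2-octanone and vehicle in either fraction or for the ratio. At an unadjusted limma p under 0.05 there were 4 of the 75 in GFP+ cells (Cd177, Chil3, Itgam and Pirb), 0 in GFP- cells and 0 for the ratio. The shares over all probe sets were 3.16%, 2.44% and 2.38%.

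Relatives of the 9 genes were compared between the fractions too, where 14.0% of all probe sets passed as lower and 16.7% as higher. In the S100 family 6 of 17 genes passed as lower and 4 as higher. After S100a8 and S100a9 came S100a11 (-5.28), S100a6 (-2.46), S100a10 (-2.43) and S100a4 (-1.89), while S100a3 (0.83), S100a13 (0.64), S100pbp (0.51; a binding protein of the family) and S100a14 (0.36) were higher in GFP+ cells. Among 17 matrix metalloproteinases 5 passed as lower and 3 as higher: Mmp12 (-3.05), Mmp25 (-2.98) and Mmp14 (-0.59) joined Mmp8 and Mmp9, and Mmp24 (0.62), Mmp2 (0.37) and Mmp16 (0.35) were higher. The family members other than S100a11, Mmp16 and Mmp24 are named because they passed, chosen after their values were seen. Of the 4 resistin genes Retnlg alone passed, and Retn, Retnla and Retnlb were not above background on any array.

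**Figure D4:**
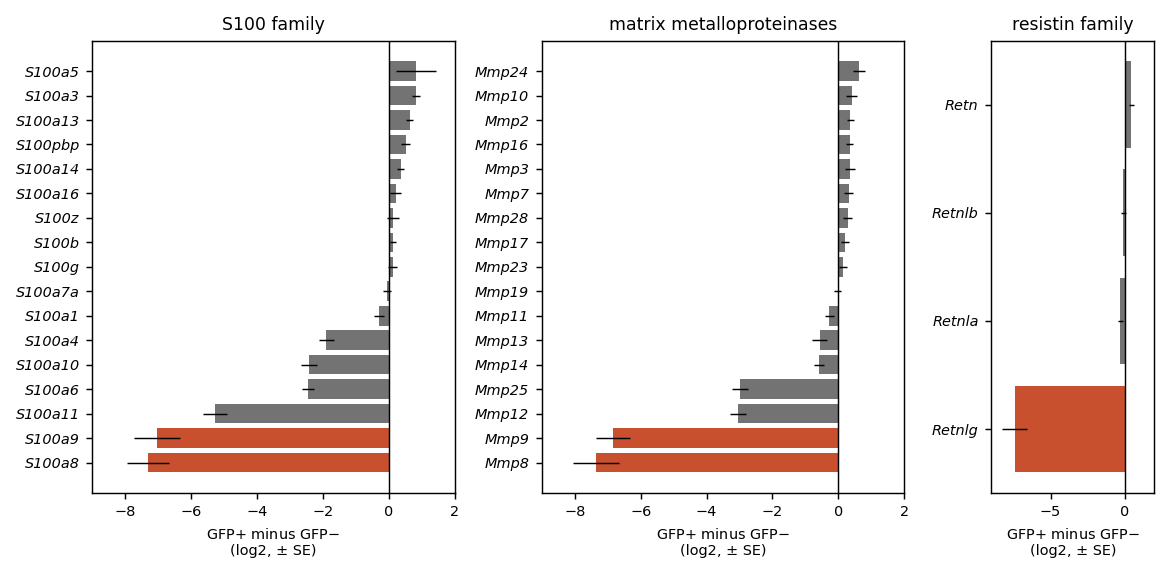
Sort difference, GFP+ minus GFP-, pooled over the exposures (log2 ± SE, horizontal axis) for the measured S100, matrix metalloproteinase and resistin genes, with the described genes in red. The red bars reach from -6.85 to -7.43, and the next lowest, S100a11, reaches -5.28.

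Genes of other blood cells were read on the same arrays. Of 10 bone marrow precursor markers, with Mpo, Elane, Prtn3 and Ms4a3 among them, 9 passed as lower in GFP+ cells over both exposures (median -3.39). In GFP- cells 3 and 4 of the 10 were above background in the replicate 3 pools of 2-octanone and vehicle, and 8 or 9 elsewhere. All 7 monocyte markers passed as lower in GFP+ cells (median -6.24), and their mean in GFP+ cells was 6.46, 6.54, 8.0 and 9.18 in 2-octanone pools 1 to 4 and 6.36 to 6.85 in the vehicle pools. The number of these markers above background in GFP+ cells was 1, 2, 2 and 5 of 7 in 2-octanone pools 1 to 4 and 1, 1, 0 and 3 in the vehicle pools, and 7 of 7 on every GFP- array. Ly6c2, which encodes a surface protein of inflammatory monocytes, read 9.11 and 11.51 in the GFP+ cells of 2-octanone pools 3 and 4 and 5.74 to 7.00 in the other 6. Ccr2, their chemokine receptor, was above background in 2-octanone pool 4 alone (8.97). Chil3 is in this list and also among the further specific and gelatinase granule genes, so the lists overlap. In GFP+ cells it read 11.17 and 12.90 in 2-octanone pools 3 and 4 and 7.03 to 8.13 in the other 6. Not every marker of the list ran this way: Csf1r, a receptor that monocytes share with macrophages, read 7.58 and 8.06 in the GFP+ cells of these 2 pools and 7.63 to 9.26 in the vehicle pools. The list's mean was higher in 2-octanone pools 3 and 4, where the 9 genes were high, and its part in the 2-octanone difference was not tested.

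Markers of other cells and states were read on the same GFP+ arrays. Mean macrophage signal in GFP+ cells (9 genes) was 8.54, 8.74, 7.74 and 8.40 in the 2-octanone pools and 7.84 to 9.30 in the vehicle pools. The B cell mean (5 genes) was 5.51 to 5.89 over the 8 GFP+ arrays, with no gene above background. Neutrophil surface receptors averaged 7.95 in 2-octanone pool 4 and 5.73 to 6.37 in the other 7 (6.37 in 2-octanone pool 3). The mature sensory neuron mean (10 genes) was 17.27 to 17.44. Fos, an immediate early gene, read 12.05 and 10.88 in the GFP+ cells of the replicate 4 pools and 8.46 to 9.41 in the other 6. Of 8 gland and airway epithelium genes, a list that holds Ltf, Ltf was the 1 called in the sort.

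**Figure D5:**
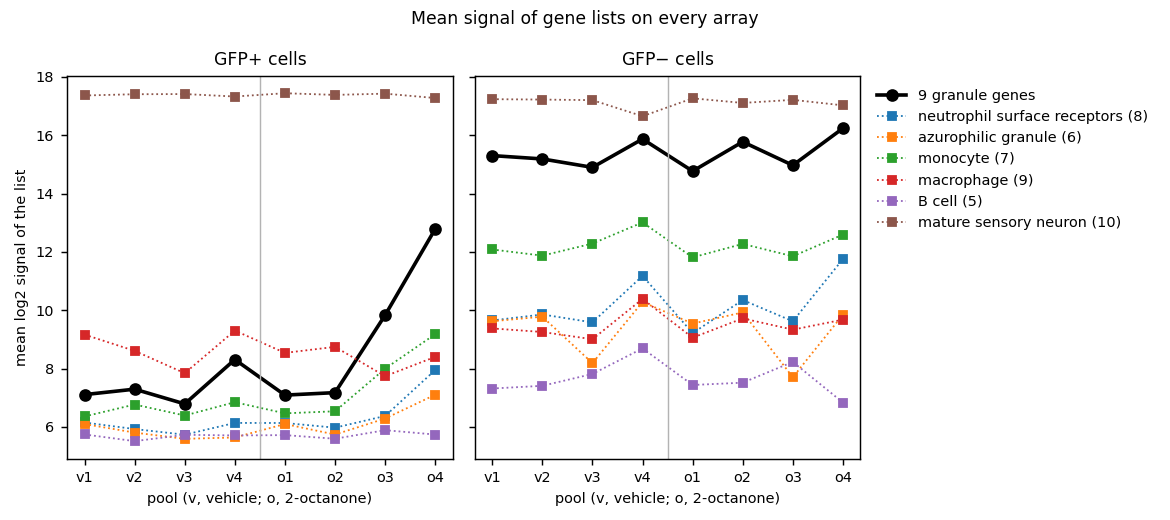
Mean log2 signal (vertical axis) of gene lists on every array, by pool (v1 to v4, vehicle; o1 to o4, 2-octanone), with the number of genes in brackets; GFP+ arrays at the left, GFP- at the right. In GFP+ cells the 9 genes read 9.83 and 12.79 in o3 and o4 and 6.79 to 8.31 elsewhere, the monocyte list 8.0 and 9.18 against 6.36 to 6.85.

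Among themselves the 9 genes were ordered by how alike their values ran over the 16 arrays. The measure was the mean absolute log2 difference after each gene's own mean was taken off, where 0 is an identical course. S100a8 and S100a9 were nearest to each other (0.19), as were Lcn2 and Ngp (0.21), and Camp and Mmp9 (0.30). Ltf was nearest to Camp (0.35), Mmp8 to S100a8 (0.35) and Retnlg to Ngp (0.38). Camp and Retnlg were the farthest apart (0.94). Genes in the background on most GFP+ arrays and genes near the top of the scale on GFP- arrays have less room to vary, and these distances hold that too.

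Outside the set, the 12 genes nearest to the mean course of the 9 were Ly6c1 (0.29), Chil3 (0.35), Ly6c2 (0.44), Ifitm6 (0.50), Hp (0.53), Anxa1 (0.60), Ccr2 (0.62), Mrgpra2b (0.63), Chil4 (0.65), Rac2 (0.66), Itgam (0.67) and Olfr1507 (0.70). The median distance from the same mean over all genes was 3.71. These distances keep the difference between the fractions, which was -7.57 (Ly6c2) to -5.98 (Chil4) for the 12 genes. A like difference between the fractions thus brings a gene near, and a course within the fractions was not measured apart from it. Chil3, Ly6c2 and Ccr2 are among the monocyte markers, and Chil3 again, Hp, Anxa1, Itgam and Rac2 among the neutrophil lists. Olfr1507, an odorant receptor gene, read 9.78 and 10.57 in the GFP+ cells of 2-octanone pools 3 and 4 and 6.55 to 8.25 in the other 6.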

How the data were processed

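The deposited table holds 28846 probe sets on 16 Clariom S mouse arrays; each array took biotin-labelled cRNA from 50 to 100 ng of RNA, per the labels' protocols. The authors made its log2 signals with Affymetrix Expression Console, per the submitters' processing notes. Log base, algorithm and build are not given in the sources used here, and the values (2.13 to 18.99) were read as log2 from their range. Controls (6640) and probe sets naming no gene (2634) were left out. The number of arrays, 4 per group, limits the precision.

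All 16 arrays were fitted with limma 3.58.1 in R 4.3.3 (lmFit, eBayes) on the 4 group means, with 12 residual and 4.19 prior degrees of freedom, two-sided, with Benjamini-Hochberg adjustment over 19572 probe sets and a threshold of 0.05. The fit was tested on simulated data. Members, gene lists, tests and named-gene rule (per list, the up to 4 genes with the highest mean) were chosen with earlier results of these data known. Both fractions of a pool share their mice, which pairs their arrays. Like replicate numbers of the exposures gave residual correlations of 0.193, 0.175, 0.265 and 0.435 in GFP+ and 0.336, -0.062, 0.352 and 0.517 in GFP- cells. Nothing in the labels says what a number shares. Pools are different mice. The main fit held no term for the pool, so its p-values measure the spread between arrays within the 4 groups. That spread was shared by all groups although it differed between them. For Lcn2 the SD was 3.28 in 2-octanone GFP+ and 0.07 in vehicle GFP- cells. Alternatives covered normalisation, filters, limma options, blocks and left-out pools. Genes without a named probe set were not analysed here.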

Additional observations from a re-analysis of the deposited data

Results flagged for a closer look

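Of 54 groups of 4 values tested for a value far from its 3 neighbours, 4 were marked, where chance marks about 1 in 20. Lcn2 in vehicle GFP+ cells read 10.24 in replicate 4, against 8.47 to 8.57 in the other 3 pools. The within-pool difference of Lcn2 was -7.08 in vehicle replicate 4, the least negative of the 4 vehicle pools, and that of Ngp was -6.61 in the same pool. Mmp8 had its least negative vehicle difference, -7.52, in replicate 2.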

How the results depend on the processing

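The counts of called genes were the same under every alternative run: 9 of 9 in each comparison of GFP+ with GFP- cells, and 0 of 9 between 2-octanone and vehicle and for the ratio, including the pool as a fixed or random replicate block and the replicate number as a replicate block. The replicate number as a block left the median difference in GFP+ cells at 2.00. It put 7 of the 9 genes, in place of 4, under an unadjusted limma p of 0.05. Of all 19572 probe sets it put 997, in place of 618, under the same p. With 2-octanone replicate 4 left out the median fell to 0.74 in GFP+ cells and to 0.81 for the ratio, and with both replicate 4 pools left out to 1.18 and 1.10. These shifts are smaller than the SD of the 9 genes' mean between arrays of a group (1.44). That SD takes in 2-octanone replicates 3 and 4 themselves, whose GFP+ means were 9.83 and 12.79. Replicates 1 and 2 read 7.09 and 7.17. The SD therefore cannot show that the shifts are small. Larger shifts came with 2-octanone replicates 3 and 4 left out, a choice made after seeing the data: to -8.29 for the sort after 2-octanone, to -0.22 for 2-octanone in GFP+ cells and to -0.14 for the ratio. The construction (those 2 pools absent) gives the change. The remaining 233 values for whole comparisons are counts, which did not change, and medians, which have no test. These medians shifted by less than 1.44, and some small ones changed sign. That for 2-octanone in GFP- cells went from 0.12 to -0.17 without 2-octanone replicate 4. The 1062 values for single genes kept their direction where called and their side of the threshold. The probe set with the lowest mean was not run as an alternative, since each gene had 1. Signals under the background limit, in most GFP+ arrays for S100a8, Ltf, Camp, Mmp8 and Mmp9, limit how large a difference can be seen. Retnlg was above that limit on only 2 of the 4 GFP+ arrays of each exposure.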
